A study of Mus musculus with 2 samples.

Results

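The miR-15 family groups microRNAs (miRNAs) that come from several clustered hairpins and share the bases with which they find their targets. In the table of mature miRNAs from Dicer knockout mouse embryonic stem cells, its members were taken by name alone: every row named miR-15, miR-16, miR-195, miR-322, miR-497 or miR-503, with any letter, copy number or arm. This gave 17 of the 1907 listed mature miRNAs. Of these, 7 were 5p arms and 8 were 3p arms, the strands that flank the loop of a hairpin on its 5′ and its 3′ side, and 2 had no arm in their names. They derive from 10 hairpins.

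The cells were mouse embryonic stem cells with the genotype Dicer knockout, from the strain background 129/Ola and labelled E14, grown in serum with LIF on gelatine. Small RNA was sequenced in 2 libraries of this 1 genotype, called library 1 and library 2 after their titles. Their descriptions, Dicer_KO_C1 and Dicer_KO_H11, do not tell if these were different clones, so the spread between them may be technical. A miRNA table does not measure the loss of Dicer itself. No cells with Dicer were analysed here, and the levels below cannot be set against a wild type.

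Drosha cuts a primary transcript into hairpins, and Dicer then cuts the hairpin into a short duplex from which an Argonaute protein keeps 1 strand. Bases 2 to 8 of the kept strand, the seed, pair with the messenger RNA. The miR-15 family is known for repressing cell cycle and survival genes such as D-type cyclins, cyclin E1, Cdc25a and Bcl2. Mouse embryonic stem cells are better known for the miR-290 cluster, which favours rapid division.

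The 5p members are shown because the shared seed is what makes them a family, and because the bases after it decide how well reads can be told apart. All 17 names matched a mature sequence in RefSeq (GRCm38.p6), written 5′ to 3′ with the seed in capitals.
miR-16-5p: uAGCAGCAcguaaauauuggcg
miR-15a-5p: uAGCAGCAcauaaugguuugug
miR-15b-5p: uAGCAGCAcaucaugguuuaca
miR-195a-5p: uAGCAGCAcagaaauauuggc
miR-322-5p: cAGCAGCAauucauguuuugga
miR-497a-5p: cAGCAGCAcacugugguuugua
miR-503-5p: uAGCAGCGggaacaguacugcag

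Of the 17 members, 7 had the seed AGCAGCA: the first 6 sequences above and miR-195b. The seed of miR-503-5p, AGCAGCG, differed at its last base. Counting positions from 1 at the 5′ end and allowing no gaps, miR-195a-5p differed from miR-16-5p only by G10A and U11G over 21 bases. By the same comparison miR-15b-5p differed from miR-15a-5p by A12C, G20A, U21C and G22A. The member miR-322-5p matched miR-16-5p at 12 of 22 bases, and miR-497a-5p matched miR-16-5p at 11 of 22.

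The 3p arms of the miR-16 hairpins are shown because they are the only members that tell the 2 genomic copies of miR-16 apart. Their seeds are again in capitals.
miR-16-1-3p: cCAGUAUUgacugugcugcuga
miR-16-2-3p: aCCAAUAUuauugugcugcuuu

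The hairpins of both copies, shown to set the 3p arm (capitals) against the identical 5p arm before it, read in RefSeq as follows.
Mir16-1: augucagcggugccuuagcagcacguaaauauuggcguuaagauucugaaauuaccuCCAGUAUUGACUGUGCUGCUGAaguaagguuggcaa
Mir16-2: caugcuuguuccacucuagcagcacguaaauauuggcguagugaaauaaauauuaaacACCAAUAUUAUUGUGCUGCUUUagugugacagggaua

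The 10 hairpins lie at 4 clustered loci and 1 single site (GENCODE M21, GRCm38, the assembly also called mm10). At the Mir15a/Mir16-1 locus, Mir15a is at chr14:61632027-61632110 and Mir16-1 at chr14:61631880-61631972, both on the minus strand and 54 bases apart. Both lie inside Dleu2, a long non-coding RNA gene on the same strand. Mir15a is intronic, and Mir16-1 overlaps an annotated exon. At the Mir15b/Mir16-2 locus, Mir15b is at chr3:69009772-69009835 and Mir16-2 at chr3:69009902-69009996, on the plus strand in an intron of Smc4, which encodes a condensin subunit. At the Mir195a/Mir497 locus, between annotated genes, Mir497 is at chr11:70234717-70234800 and Mir195a at chr11:70235042-70235135, both on the plus strand. Mir497b lies opposite Mir497 on the minus strand, at chr11:70234692-70234816. At the Mir322/Mir503 locus, also between genes, Mir322 is at chrX:53054255-53054349 and Mir503 at chrX:53053984-53054054, on the minus strand and 200 bases apart. The hairpin Mir195b stands alone between genes at chr2:56785811-56785907.

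The 2 libraries held 45222 and 37476 counts in all. A single count was worth 22.1 CPM, counts scaled to a total of 1000000, in library 1; in library 2 it was worth 26.7 CPM. Finding 0 counts allows a share of up to 0.00663% in library 1 and 0.00801% in library 2, taking 3 counts as the limit. Among markers of embryonic stem cells, the miR-290 cluster held 1638 and 1214 counts, and miR-302 with miR-367 held 4 in each library. The list for differentiated cells in general, let-7 with miR-98, held 30 counts in library 1 and 12 in library 2. The lists for muscle and for liver held 0, and those for mesenchymal cells, neurons and blood held between 5 and 27 counts per library. Intervals and limits in the text cover counting error only and not other spread between libraries. The labels describe no tags that mark single molecules, so repeated reads of a molecule could not be told apart and the intervals may be too narrow.

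The family was present in both knockout libraries with a small share of all counts, and most of it was miR-16. Together the 17 members had 200 counts in library 1, or 0.442% (95% Wilson interval 0.385 to 0.508), and 181 in library 2, or 0.483% (0.418 to 0.558). The mean share was 0.463% ± 0.0288 (SD, n = 2). This share depends on the denominator, as miRNAs numbered 1000 or below held only 11624 counts in library 1 and 7784 in library 2. Of those counts the family made up 2.02% ± 0.428 (SD, n = 2). The members' combined log2 ratio of library 2 over library 1 was 0.13, with an exact 95% interval from -0.17 to 0.42. The miR-17 family clusters, which promote proliferation and are listed with 30 rows, held 1.06% ± 0.0462 (SD, n = 2), and the 12 rows of the miR-30 family 0.723% ± 0.197 (SD, n = 2). The family's interval lay below that of the miR-17 family clusters and of the miR-30 family in library 1. In library 2 it lay below that of the miR-17 family clusters and overlapped that of the miR-30 family, which reached from 0.512% to 0.667%.

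Members ranged from 0 to 118 counts in a library. A count was found for 10 of the 17 in either library, for 7 in both, and at least 10 counts in both for 3. Over all listed miRNAs numbered 1000 or below, 7.71% had at least 10 counts in both libraries, as had 4.20% of all listed miRNAs. The 3 were miR-16-5p, miR-15b-5p and miR-16-1-3p. In both libraries 7 members were at 0: miR-15a-3p, miR-195a-3p, miR-195b, miR-497a-3p, miR-497b, miR-503-3p and mmu-miR-503-5p. These are 41.2% of the members, beside 77.3% of all listed miRNAs at 0 in both libraries. Among the 843 miRNAs numbered 1000 or below, ranked by mean CPM, those at 0 in both libraries began at rank 346.

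The most abundant member, mmu-miR-16-5p, gave 118 counts in library 1 against 110 in library 2. These are 2609 CPM (exact 95% Poisson interval 2160 to 3125) and 2935 CPM (2412 to 3538). Its mean of 2772 CPM ± 230.4 (SD, n = 2) ranked 21 in the table and 12 among miRNAs numbered 1000 or below. The nearest in level among the latter were miR-127-3p with 3983 CPM ± 1537 and miR-21a-3p with 3514 CPM ± 1724 above it. Directly below it were miR-292a-5p with 2725 CPM ± 118 and miR-290a-3p with 2267 CPM ± 828, both from the miR-290 cluster (SD, n = 2 for each). The values of miR-16-5p in the 2 libraries overlapped the range of each of these 4, so its place among them is not fixed beyond the spread.

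The member mmu-miR-15b-5p gave 27 counts in library 1 against 20 in library 2, or 565 CPM ± 44.8 (SD, n = 2). It stood 4.90-fold below miR-16-5p, and the Poisson intervals of the pair were separate in both libraries. The 3p arm miR-16-1-3p followed with 23 and 21 counts, or 534 CPM ± 36.6 (SD, n = 2). These levels overlapped, so no order was seen between miR-15b-5p and miR-16-1-3p.

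Behind these came 3 more 5p arms with few counts. The arm mmu-miR-322-5p, the mouse counterpart of human miR-424, gave 8 counts in library 1 against 14 in library 2, or 275 CPM ± 139 (SD, n = 2). The arm mmu-miR-15a-5p had 11 and 7 counts, or 215 CPM ± 39.9 (SD, n = 2). The arm miR-195a-5p had 7 and 6 counts, or 157 CPM ± 3.76 (SD, n = 2). Poisson intervals of neighbours overlapped in both libraries all along this order, from miR-15b-5p down to the rarest member with a count. The remaining members with counts had 1 to 3 in all: miR-497a-5p had 2 and 1, miR-15b-3p had 3 and 0, miR-16-2-3p had 0 and 2, and mmu-miR-322-3p had 1 and 0.

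**Figure D1:**
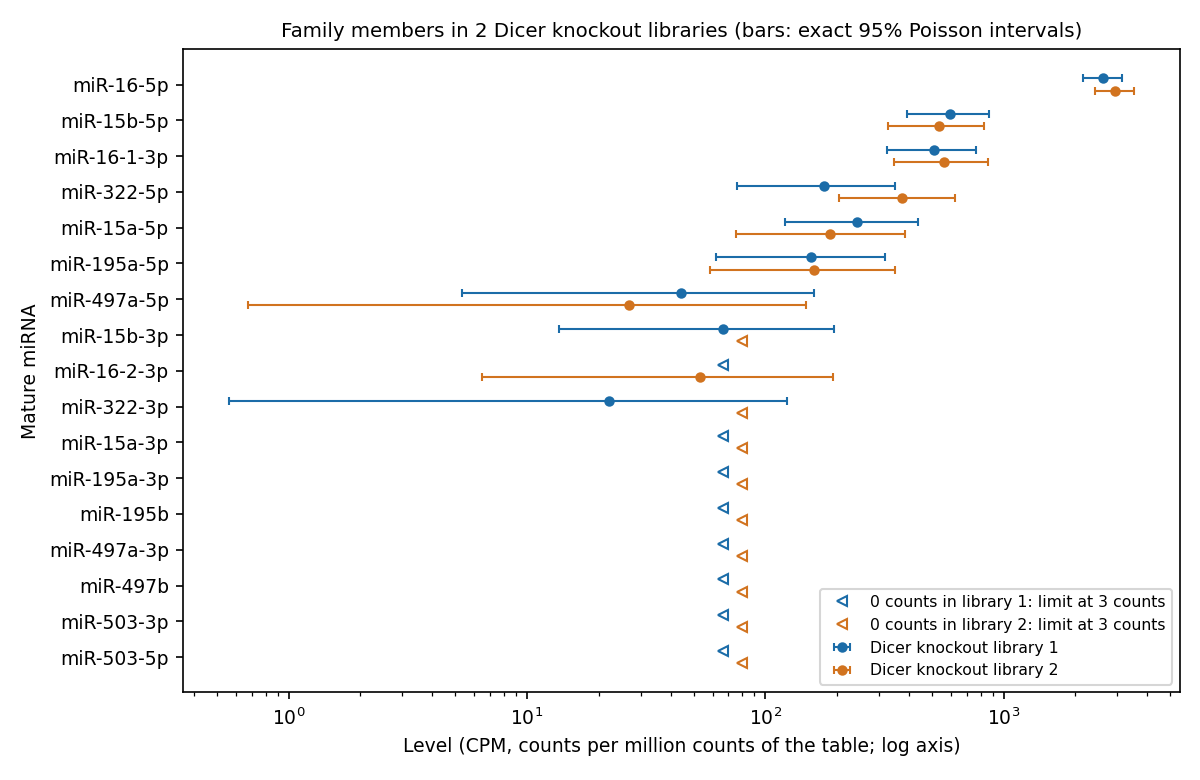
Level of each of the 17 members (vertical axis) in CPM on a log axis, with 1 point per library and exact 95% Poisson intervals; open triangles mark 0 counts, drawn at the limit of 3 counts. The member miR-16-5p stands apart at 2609 and 2935 CPM, while 7 members are at 0 in both libraries.

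The reads of miR-195a-5p need care because its sequence is so close to that of miR-16-5p. Its counts came to 0.0593 of those of miR-16-5p in library 1 and 0.0545 in library 2. Whether the counting allowed mismatches is not given in the sources used here, and the part of misassigned miR-16-5p reads in this value was not tested. The near copy miR-195b, which differs from miR-195a-5p by U17G, G19A and C21A, had 0 counts in both libraries.

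Over both arms, the counts that can be placed by locus came mainly from both miR-15/16 clusters, with no clear order between their totals. The arm miR-16-5p is identical at both and was kept apart; it held 59.9% ± 1.25 of the family's counts (SD, n = 2). The Mir15a/Mir16-1 locus had 34 of 200 family counts in library 1, or 17% (95% Wilson interval 12.4 to 22.8), and 28 of 181 in library 2, or 15.5% (10.9 to 21.4). The Mir15b/Mir16-2 locus had 30 counts, or 15% (10.7 to 20.6), and 22 counts, or 12.2% (8.17 to 17.7). The intervals of these loci overlapped in both libraries. Over both arms, the Mir322/Mir503 locus had 9 and 14 counts, 6.12% ± 2.29, and the Mir195a/Mir497 locus 9 and 7 counts, 4.18% ± 0.447 (SD, n = 2 for both). Of the Mir15a/Mir16-1 counts, 23 and 21 were of the 3p arm miR-16-1-3p. Over 5p arms alone, Mir15a/Mir16-1 had a mean of 5.39% and Mir15b/Mir16-2 had 14.1%, beside 6.74% for Mir322/Mir503 and 4.82% for Mir195a/Mir497. On that measure Mir15a/Mir16-1 did not stand above Mir322/Mir503. How reads that fit 2 places were counted is not given in the sources used here, so the count of miR-16-5p may be incomplete or may hold reads counted at both.

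**Figure D2:**
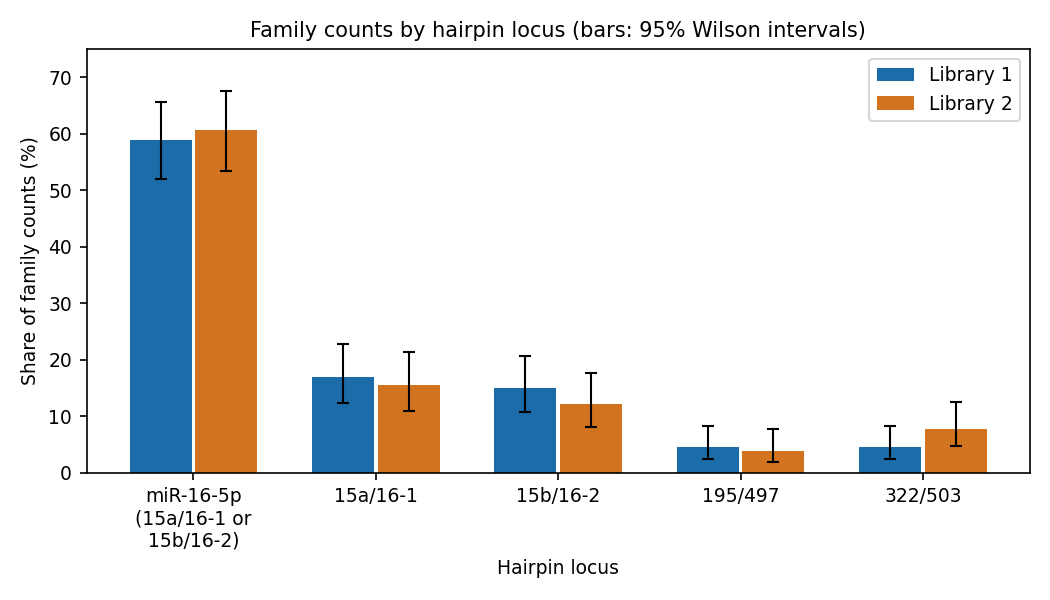
Share of the family's counts (vertical axis, %) by hairpin locus for library 1 and library 2, with 95% Wilson intervals. The arm miR-16-5p, which either miR-15/16 locus can give, takes 59% and 60.8%, and the intervals of the loci labelled 15a/16-1 and 15b/16-2 overlap.

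Different arms ranked these loci in opposite order. Among miR-15 reads the 15b locus was ahead: miR-15b-5p made up 27 of 38 counts of miR-15a-5p and miR-15b-5p in library 1, or 71.1% (exact 95% binomial interval 54.1 to 84.6). In library 2 it made up 20 of 27, or 74.1% (53.7 to 88.9). Among the 3p arms of miR-16 the 15a locus was ahead. In library 1 miR-16-1-3p gave 23 of 23 such counts, or 100% (85.2 to 100), and in library 2 it gave 21 of 23, or 91.3% (72.0 to 98.9). All 4 intervals lay above 50%, in the same direction in both libraries.

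The order also changed within a locus. At Mir15a/Mir16-1, whose hairpins come from the same strand of Dleu2, miR-16-1-3p had 2.09 times the counts of miR-15a-5p in library 1 and 3 times in library 2. Its share of the pair was 67.6% (exact 95% binomial interval 49.5 to 82.6) and 75% (55.1 to 89.3), so in library 1 the interval included 50%. At Mir15b/Mir16-2 miR-16-2-3p had 0 and 2 counts beside 27 and 20 of miR-15b-5p.

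At the Mir322/Mir503 locus only the miR-322 hairpin was seen. The arm miR-503-5p, which is known to act on cell cycle genes together with miR-322 in muscle, had 0 counts in both libraries, as had miR-503-3p. With 8 and 14 counts of miR-322-5p beside it, its 0 left a lower limit for miR-322-5p of 63.1% in library 1 and 76.8% in library 2 of their joint counts (exact 95% binomial interval). The other hairpins of the same strand within 6353 bases also gave few counts. The arm miR-351-5p had 8 and 12, miR-450a-5p had 5 and 4, miR-450b-5p had 2 and 7, and miR-542-5p had 0 and 1.

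The Mir195a/Mir497 locus, whose miRNAs are known for roles in skeletal muscle, was near the limit of what could be seen. There miR-195a-5p had 7 of the 9 counts of miR-195a-5p and miR-497a-5p in library 1 and 6 of 7 in library 2. The exact binomial intervals, 40% to 97.2% and 42.1% to 99.6%, included an even split. The opposite-strand entry miR-497b had 0 counts.

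The 5p arms held most of the family's counts, as in much of the table. The miR-16 hairpin had 46 of the family's 50 3p counts. Over the 7 hairpins listed with both arms, copies merged, 173 of 200 counts in library 1 were 5p, or 86.5% (95% Wilson interval 81.1 to 90.6), and 158 of 181 in library 2, or 87.3% (81.7 to 91.4). The mean was 86.9% ± 0.561 (SD, n = 2). Over the 769 other hairpins it was 79.7% ± 3.86 (SD, n = 2), and without the 3 most abundant of them 62.5% ± 4.69. These are descriptions, and the difference was not tested.

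Single hairpins ranged from 83.2% 5p for miR-16 to 100% for miR-15a and miR-195a, over the 5 with at least 10 counts in both libraries together. In between were miR-15b with 94% and miR-322 with 95.7%. Over all 101 hairpins with as many counts, the median was 79.1%, with quartiles at 25% and 94.7%, and 11.9% had no 3p count. These 5 family hairpins all stood above that median.

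The merged miR-16 hairpin had 23 3p counts in library 1 and 23 in library 2, nearly all from Mir16-1. If every counted miR-16-5p read came from Mir16-1, its 3p arm would make up 16.3% of that hairpin's counts in library 1 and 16.03% in library 2. If some came from Mir16-2, these shares would be higher, and if reads that fit both copies were left out of the miR-16-5p count, they would be lower. They are therefore no limit in either direction. The arm miR-16-1-3p ranked 19 among the 799 listed 3p arms, and it was 1 of 28 of them with at least 10 counts in both libraries.

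Arm use of the miR-16 hairpin did not differ detectably between the libraries, and the other family hairpins had too few 3p counts for a call. In Fisher's exact test of 5p against 3p counts, adjusted over 101 hairpins by the Benjamini-Hochberg method, 0 of the 5 family hairpins passed an adjusted p-value of 0.05, and 0 had an unadjusted p under it. Over all 101 hairpins 2.97% passed the adjusted threshold. The unadjusted p was lowest for miR-15b, at 0.265 (Fisher's exact test), with 3 of 30 counts from the 3p arm in library 1 and 0 of 20 in library 2. A call was impossible for miR-15a and miR-195a, which had no 3p count, and for miR-322, which had 1. The 3p counts of miR-15b could not have given a call either, however they were split. All 5 adjusted p-values were 1.

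**Figure D3:**
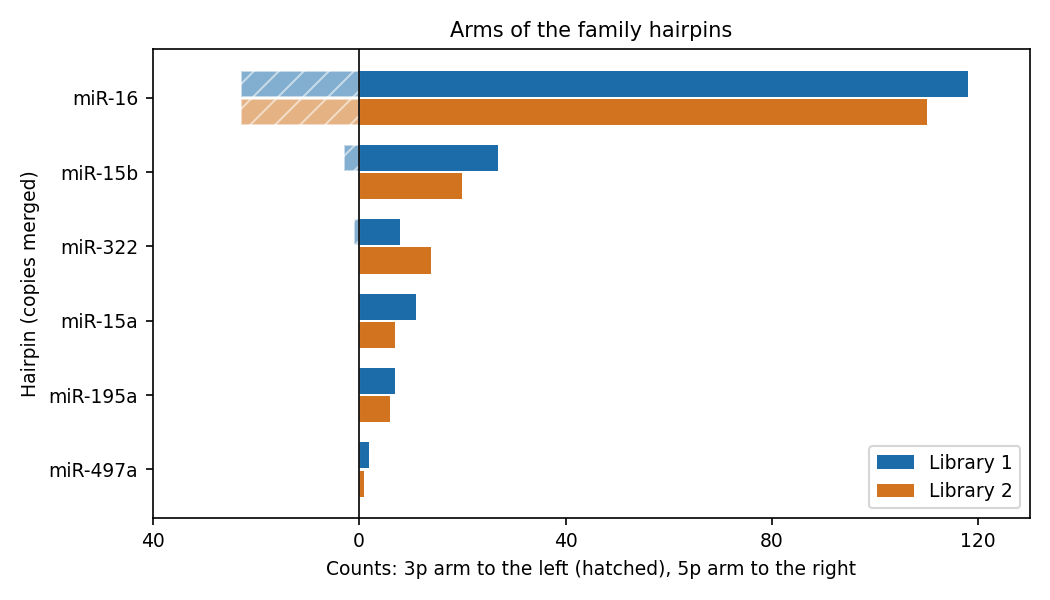
Counts of the 3p arm (hatched, to the left) and the 5p arm (to the right) of each family hairpin with a count, for library 1 and library 2, with numbered copies merged. The miR-16 hairpin has 23 3p counts in each library; the others have between 0 and 3.

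Finally, the members were compared between the 2 knockout libraries, which tests those libraries and not a condition. Each of the 129 miRNAs with at least 10 counts together was tested against the rest of its library by Fisher's exact test, two-sided. P-values were adjusted over all 129 by the Benjamini-Hochberg method, and a call took an adjusted value under 0.05 together with a ratio of 2-fold or more. Of the 6 family members that could be tested, 0 were called and 0 had an unadjusted p under 0.05. Over all tested miRNAs 7.75% were called, and without the fold minimum 19.4%. An unadjusted p under 0.05 was found for 30 of the 129.

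The widest difference was that of miR-322-5p, with 177 CPM in library 1 and 374 CPM in library 2. Its log2 ratio of library 2 over library 1 was 1.08, with an exact 95% interval from -0.27 to 2.54 (Fisher's exact test, adjusted p = 0.285). On the scale of all counts the interval included 0, and at 8 and 14 counts a difference of this size could not be told from counting error.

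The most deeply counted member, miR-16-5p, gave the narrowest interval. Its log2 ratio was 0.17, from -0.22 to 0.56 (Fisher's exact test, adjusted p = 0.684), so a difference of 2-fold lay outside the interval. For miR-15b-5p the log2 ratio was -0.16, from -1.07 to 0.73, and for miR-16-1-3p it was 0.14, from -0.79 to 1.06. For miR-15a-5p it was -0.38, from -1.99 to 1.12, and for miR-195a-5p it was 0.05, from -1.80 to 1.85. The last 4 intervals each reached past 2-fold in at least 1 direction. The median log2 ratio of the 6 members was 0.09, beside -0.05 over all 129 tested.

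**Figure D4:**
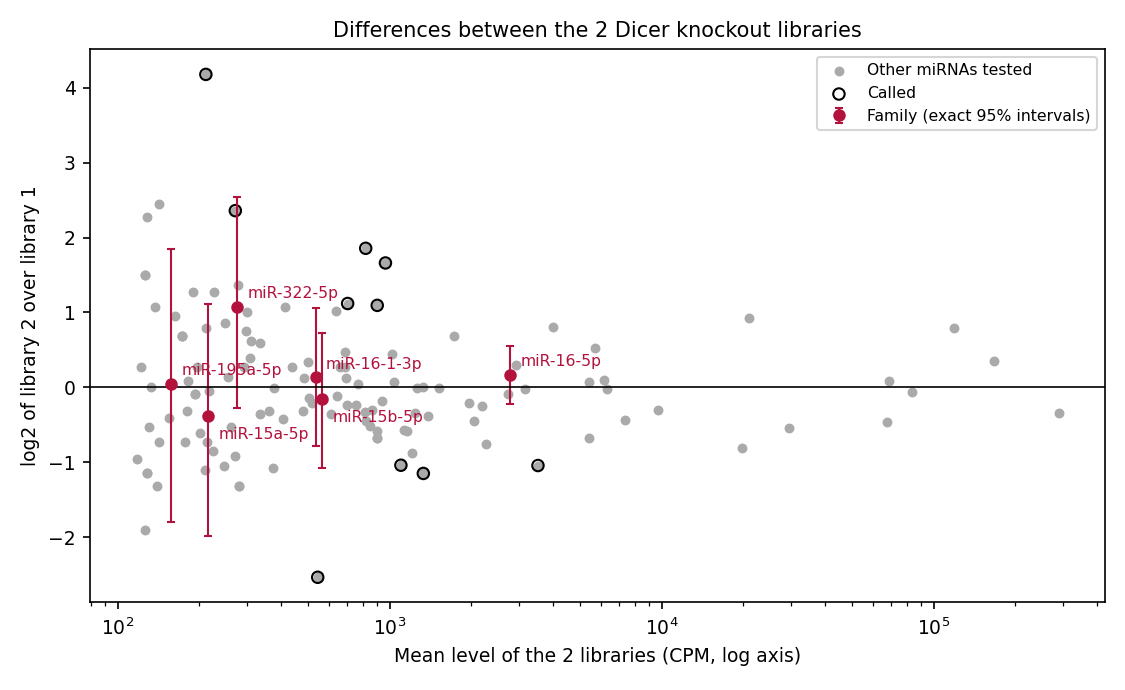
Log2 ratio of library 2 over library 1 (vertical axis) against the mean level of the 2 libraries in CPM (horizontal log axis) for 129 tested miRNAs; family members are red with exact 95% intervals and called miRNAs are ringed. All 6 family intervals include 0, and that of miR-16-5p is the narrowest of them.

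The ratios moved with the scale. When libraries were scaled by their counts of miRNAs up to number 1000, each ratio shifted by 0.31 on the log2 scale in favour of library 2. With it the ratio of miR-15b-5p turned from -0.16 to 0.15, and the other 5 members kept their direction. On that scale miR-16-5p had a log2 ratio of 0.48 and an unadjusted p of 0.0142, and it missed the threshold after adjustment (Fisher's exact test, adjusted p = 0.0725). There miR-322-5p had a log2 ratio of 1.39 and an unadjusted p of 0.0293, and it also missed the threshold (Fisher's exact test, adjusted p = 0.121).

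The seed AGCAGCA and the name rule had 7 mature miRNAs in common. Of the 1907 names, 1623 matched a RefSeq sequence, and 10 of these had the seed AGCAGCA. The 3 outside the name rule, miR-6342, miR-6353 and miR-6419, had 0 counts in both libraries. The seed therefore had 173 counts in library 1 and 158 in library 2, all from 6 5p members of the family, or 0.402% ± 0.0276 (SD, n = 2). It ranked 14 among the 1352 seeds of the matched names. Unmatched names were left out of the ranks, among them miR-6539 with 3843 and 3053 counts and miR-5099 with 2996 and 2641. The seed of miR-16-1-3p, CAGUAUU, was carried by that arm alone, with 0.0534% ± 0.00366 (SD, n = 2), and ranked 46.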

How the data were processed

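Total RNA of 2 Dicer knockout libraries was made into small RNA libraries with the TruSeq kit, per the labels' protocols. The authors deposited 1 table of raw counts per mature miRNA. The submitters' processing notes name cutadapt, STAR and featureCounts without versions, and the build mm10; settings for mismatches and for reads with several places are not given in the sources used here. CPM divides a count by the table's total per library (45222 and 37476). Positions come from GENCODE M21 and sequences from RefSeq (GRCm38.p6).

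With 1 group of 2 libraries, no model with replicates could be fitted. Fisher's exact tests were run over the whole table and adjusted over it. They were tried on simulated counts with planted 4-fold changes and counting error only. That trial cannot tell how the tests behave under other spread between libraries. Named are all members, the 2 miRNAs numbered 1000 or below on either side of the most abundant member in level, 3 comparison families, other miRNAs with the seed, and, chosen after their values were seen, the other hairpins beside Mir322. Members and lists were chosen with earlier results of these data known. The marker lists were miR-290 to miR-295, miR-302 with miR-367 (4 counts in each library), let-7 with miR-98 (30 and 12), mesenchymal (7 and 16), muscle (0), neuron (27 and 9), blood (10 and 5) and liver (0). Alternatives in scale, filter, fold minimum, pseudocount, denominator and membership were tried. Tools were R 4.3.3 with edgeR 4.0.16, used for TMM factors only, and scipy 1.17.1, pandas 2.3.3, numpy 2.4.6 and matplotlib 3.10.9 under Python 3.11.15.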

Additional observations from a re-analysis of the deposited data

How the results depend on the processing

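The mean family share, 0.463%, was 0.650% without the most abundant entry in the denominator, 2.02% of the counts of miRNAs numbered 1000 or below and 3.68% without the 10 most abundant entries. It was 0.402% by seed or with 5p arms only, and 0.387% over members with at least 10 counts in both libraries. With miR-16-5p left out, the locus shares were 40.5% (Mir15a/Mir16-1), 33.8% (Mir15b/Mir16-2), 10.4% (Mir195a/Mir497) and 15.3% (Mir322/Mir503). With miR-16-5p split in the ratio of miR-15a-5p to miR-15b-5p, Mir15a/Mir16-1 had 32.7% and Mir15b/Mir16-2 had 57.0%, the opposite order. With 5p arms only, Mir15a/Mir16-1 had 5.39% and Mir195a/Mir497 had 4.82%, while Mir15b/Mir16-2 had 14.1% and Mir322/Mir503 had 6.74%. The mean 5p share of 86.9% was 96.6% without miR-16 and 84.9% over those reaching 10 counts in both libraries. Detected members, a mean of 4 per library, were 8.5 with a minimum of 1 count, 6.5 with 3 and 1 with 50. All these follow from which counts enter.

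No member was called under any of the 9 settings of the library comparison, and no family hairpin under the 2 other filters of the arm test. Filters and fold minimums cannot move a log2 ratio. Of the 30 member values under another scale or a pseudocount, 29 kept their direction. The log2 ratio of miR-15b-5p turned from -0.16 to 0.15 when scaled by miRNAs up to number 1000.

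Leaving out 1 library gave family shares from 0.442% to 0.483%, locus shares from 15.5% to 17% (Mir15a/Mir16-1), 12.2% to 15% (Mir15b/Mir16-2), 3.87% to 4.5% (Mir195a/Mir497) and 4.5% to 7.73% (Mir322/Mir503), and 5p shares from 86.5% to 87.3%. The seed's share was 0.383% to 0.422%, and 4 members were detected in each library. These were not all the same, as miR-15a-5p reached 10 counts only in library 1 and miR-322-5p only in library 2. The comparisons between libraries need both. No paired analysis was possible because the series holds a single group. At this depth 6 members reached the 10 counts needed for the test; 10 were tested without a filter and 4 with a minimum of 20 counts.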
